A study of Sus scrofa with 6 samples.

Results

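Interferon-stimulated genes are the genes that a cell switches on when it senses interferon or viral nucleic acid. A set of 43 such genes was taken by symbol, and 38 of them had a row in the expression files of pig cerebral cortex, among 28965 annotated genes. The other 5 (DDX58, IFIT3, GBP1, XAF1 and RNF213) had no row under those symbols. Of the 38, 36 had enough reads to be tested, among 14458 tested genes. OASL, a relative of the oligoadenylate synthetases, held 1 to 4 reads per library, and ISG20, an RNA exonuclease, held 0 reads in 4 libraries and 5 and 2 reads in deletion replicates 2 and 3. Every one of the 36 tested genes had at least 10 reads in all 6 libraries.

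The RNA came from the cortex of 6 male pigs aged 140 days, sequenced in bulk as polyadenylated RNA. Wildtype pigs (n = 3) were compared with pigs whose maternal copy of UBE3A was deleted (n = 3), and each library came from a separate animal. UBE3A encodes a ubiquitin ligase. Neurons use mainly the maternal allele, and people who lack it have Angelman syndrome. The extent of the deletion, and the housing and infection history of the animals, were not given in the sources used. Libraries held 19796762 to 28126173 reads assigned to exons, and UBE3A stood at 87.9 to 93.7 CPM (read counts scaled to library size) in wildtype and at 7.73 to 11.7 CPM in deletion libraries, so every library matched its label. Defining markers of cerebral cortex were present throughout, with the glutamate transporter SLC17A7 at 915 to 1245 CPM and the upper-layer factor CUX2 at 94.2 to 197 CPM.

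Type I interferons bind the receptor made of IFNAR1 and IFNAR2, whose kinases JAK1 and TYK2 phosphorylate STAT2. With IRF9 it forms part of the complex ISGF3, which enters the nucleus and binds interferon-stimulated response elements in the promoters of its targets. In brain, microglia, astrocytes, vessel cells and neurons can all respond, and a low tonic level of the programme is present without infection. In bulk tissue, fewer cells of a type and less RNA per cell cannot be told apart.

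As a group, the interferon-stimulated genes leaned towards higher levels in the deletion cortex, by small amounts per gene and with no single gene passing the test over all genes. Of the 36 tested genes, 32 had a log2 fold change of deletion over wildtype above 0, where 50.5% of all tested genes did. On the authors' TPM scale (scaled for gene length), compared after the data were seen, 25 of the 36 did, where 26.9% of all tested genes did. Their median log2 fold change was 0.36, against 0.0028 over all tested genes. No gene of the set passed edgeR's quasi-likelihood test at an adjusted p of 0.05, and 0.00692% of all tested genes did (UBE3A alone). At an unadjusted p under 0.05 there were 8 with a higher mean in deletion, where 3.33% of all tested genes were called in that direction, and 0 with a lower mean, where 3.89% were. DESeq2 also called 0 of the genes at an adjusted p of 0.05, where 0.0477% of the genes it tested were called.

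The 8 genes at an unadjusted p under 0.05 were RSAD2, IFIH1, BST2, IFI6, IFI44, IFIT1, OAS2 and ISG15. Each had an edgeR adjusted p of 0.683. Groups that did not overlap were found in 8 genes with the deletion libraries higher, where 6.88% of all tested genes had this, and in 2 with the deletion libraries lower, where 7.0% had it. IFIT1, OAS2, RSAD2, IFI44, IFIH1 and ISG15 were in both sets, IFIT5 and EIF2AK2 had separate groups without the low p, and the lower pair was STAT2 and ADAR. On the authors' TPM scale 6 had separate groups with the deletion libraries higher, where 1.92% of all tested genes had this, and 2 with them lower, where 15.5% had it. ISG15 and EIF2AK2 overlapped on that scale. With 3 animals against 3, the smallest p an exact two-sided permutation test can give is 0.1.

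**Figure D1:**
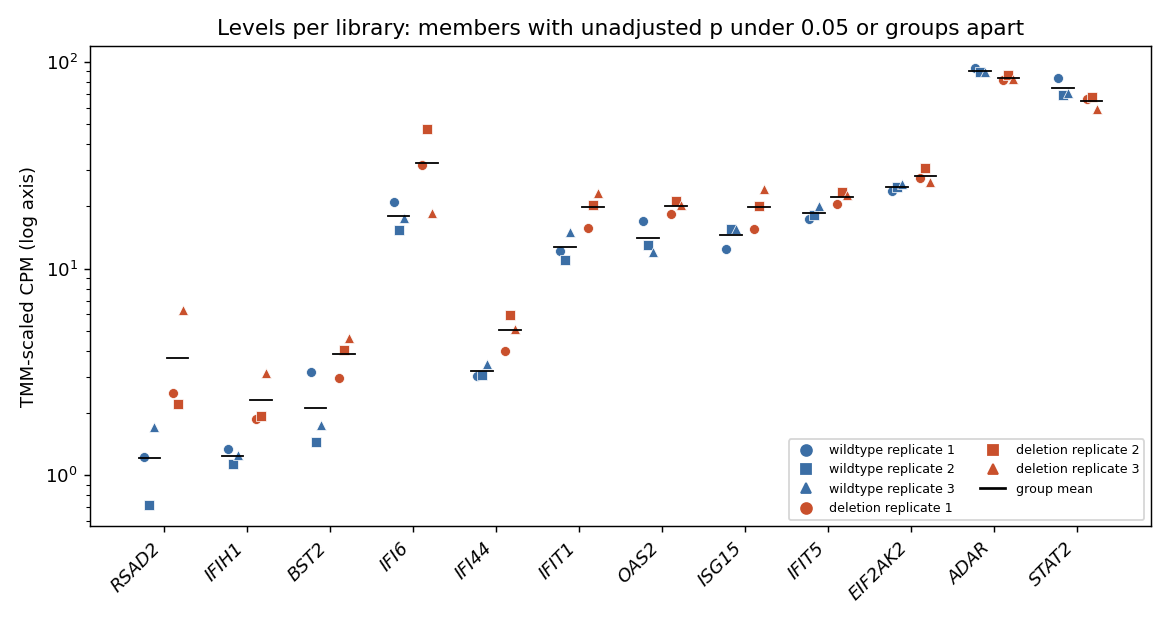
TMM-scaled CPM on a log axis in each of the 6 libraries for the 12 interferon-stimulated genes with an unadjusted edgeR p under 0.05 or with groups that do not overlap, ordered by log2 fold change; black bars are group means (n = 3). RSAD2 differs most and IFIH1 has the lowest mean level (1.78 CPM), while ADAR and STAT2 are the only 2 drawn with lower deletion libraries.

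Among the transcription factors that carry the interferon signal, none had a higher level set apart from wildtype. STAT2, the ISGF3 subunit that binds the receptor, stood at 83.1, 69.1 and 70.7 CPM in wildtype replicates 1 to 3 and at 66.1, 67.6 and 59.3 CPM in deletion replicates 1 to 3. All deletion libraries lay below all wildtype libraries, by a narrow margin (log2 fold change -0.21, SE 0.11, edgeR adjusted p = 0.686). IRF9, the DNA-binding subunit, measured 10.17 ± 0.23 CPM (SD, n = 3) in wildtype and 10.94 ± 2.88 CPM in deletion libraries. The log2 fold change of IRF9 was 0.10 (SE 0.19). IRF7, which amplifies the type I response, measured 6.20 ± 1.41 against 6.88 ± 2.27 CPM. IRF1 measured 11.7 ± 5.49 against 12.2 ± 4.10 CPM, and its highest library was wildtype replicate 1 at 18.1 CPM.

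Sensors of viral RNA and DNA, grouped with the editing enzyme ADAR, had higher means in 6 of 7 tested genes (median log2 fold change 0.51). ADAR, which is not itself a sensor, was the exception. IFIH1, which encodes MDA5, a sensor of long double-stranded RNA, stood at 1.35, 1.14 and 1.25 CPM in wildtype and at 1.88, 1.93 and 3.14 CPM in deletion replicates 1 to 3. The deletion libraries all lay above wildtype, with replicate 3 highest (log2 fold change 0.89, SE 0.31, unadjusted p = 0.0189). OAS2, an oligoadenylate synthetase that activates RNase L, stood at 16.98, 13.04 and 11.99 CPM in wildtype and at 18.4, 21.1 and 20.3 CPM in deletion libraries. Again the groups were separate, with wildtype replicate 1 close to deletion replicate 1 (log2 fold change 0.51, SE 0.15, unadjusted p = 0.00976). EIF2AK2, the kinase PKR that halts translation on double-stranded RNA, stood at 23.7, 24.7 and 25.7 CPM in wildtype and at 27.5, 30.6 and 26.1 CPM in deletion libraries (log2 fold change 0.18, SE 0.11). Its groups did not overlap, but wildtype replicate 3 and deletion replicate 3 nearly met.

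The other genes of this group overlapped between deletion and wildtype or, for ADAR, went the other way. ADAR, which edits adenosines in double-stranded RNA and limits MDA5 activation, stood at 93.5, 88.7 and 89.6 CPM in wildtype and at 81.7, 85.9 and 82.7 CPM in deletion libraries. Its deletion libraries all lay below wildtype, with a log2 fold change of only -0.12 (SE 0.08). DHX58, a regulator of the RIG-I-like receptors, had a log2 fold change of 0.43 (SE 0.24), and ZBP1, a sensor of Z-form nucleic acid, one of 0.68 (SE 0.38). OAS1, the neighbour of OAS2 in the RefSeq gene order, ranged 6.28-fold over the 6 libraries, from 0.619 CPM in wildtype replicate 2 to 3.89 CPM in deletion replicate 3, and wildtype replicate 1 held 3.16 CPM. Its log2 fold change of 0.57 had an SE of 0.55.

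The IFIT proteins bind foreign RNA ends and block its translation, and all 3 tested family members had higher means in the deletion cortex, though IFIT2 not on the authors' TPM scale. IFIT1, which recognises caps that lack ribose methylation, had the lowest p of the set: it stood at 12.2, 11.01 and 15.1 CPM in wildtype and at 15.7, 20.3 and 23.2 CPM in deletion replicates 1 to 3. Deletion replicate 1 lay just above wildtype replicate 3, and the other deletion libraries well above it (log2 fold change 0.63, SE 0.18, 95% interval 0.22 to 1.05, unadjusted p = 0.00748). IFIT5 stood at 17.3, 18.2 and 20.1 CPM in wildtype and at 20.6, 23.5 and 22.6 CPM in deletion libraries, a narrow separation with a log2 fold change of 0.26 (SE 0.12). IFIT2, which lies in the same gene cluster as IFIT1, overlapped between groups, at 7.999 ± 1.03 against 8.76 ± 1.46 CPM.

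The dynamin-like and guanylate-binding GTPases showed no separation. MX1, which blocks influenza and other viruses and is a standard readout of interferon, had by far the highest level per gene length of the set, at 160 TPM over the 6 libraries. In CPM it stood at 176, 147 and 178 in wildtype and at 150, 194 and 181 in deletion cortex. The groups overlapped, with a log2 fold change of 0.07 (SE 0.12, 95% interval -0.22 to 0.35). MX2, its neighbour in the gene order, stood at 3.71, 4.27 and 4.26 CPM in wildtype and at 4.10, 5.87 and 8.25 CPM in deletion libraries (log2 fold change 0.57, SE 0.26). Only deletion replicates 2 and 3 lay above the wildtype range for MX2. GBP2, a GTPase that coats intracellular pathogens, measured 32.2 ± 6.76 against 31.5 ± 5.87 CPM.

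A further group of antiviral effectors held the largest differences, and all 7 tested genes had higher means (median log2 fold change 0.66). RSAD2 encodes viperin, a radical SAM enzyme that makes a chain-terminating nucleotide. It stood at 1.22, 0.723 and 1.71 CPM in wildtype and at 2.51, 2.20 and 6.33 CPM in deletion libraries, from 21 to 34 reads per wildtype library and 48 to 135 per deletion library. The groups were separate, and deletion replicate 3 stood far above the other deletion libraries (log2 fold change 1.61, SE 0.50, 95% interval 0.46 to 2.75, unadjusted p = 0.0119). Without deletion replicate 3 the log2 fold change was 0.97. CMPK2, the adjacent gene, whose product is a mitochondrial nucleotide kinase, measured 12.7 ± 1.67 against 14.6 ± 3.30 CPM and overlapped.

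IFI6 encodes a small membrane protein that acts against flaviviruses at the endoplasmic reticulum. It stood at 20.9, 15.3 and 17.6 CPM in wildtype and at 31.7, 47.1 and 18.5 CPM in deletion replicates 1 to 3. Deletion replicates 1 and 2 stood above wildtype and replicate 3 inside its range (log2 fold change 0.85, SE 0.32). The deletion library that was highest for RSAD2 was thus the lowest for IFI6. BST2, or tetherin, which holds budding virions at the cell surface, stood at 3.16, 1.45 and 1.76 CPM in wildtype and at 2.97, 4.04 and 4.59 CPM in deletion libraries. Wildtype replicate 1 exceeded deletion replicate 1, and the groups overlapped there (log2 fold change 0.86, SE 0.34).

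IFI44, an interferon-induced cytoplasmic protein, stood at 3.03, 3.06 and 3.46 CPM in wildtype and at 4.00, 5.96 and 5.11 CPM in deletion libraries, with separate groups (log2 fold change 0.66, SE 0.22). Its neighbour and relative IFI44L stood at 4.89, 5.44 and 5.22 CPM in wildtype and at 5.02, 8.12 and 7.73 CPM in deletion libraries. For IFI44L, deletion replicate 1 lay inside the wildtype range (log2 fold change 0.42, SE 0.21). TRIM21, a cytosolic antibody receptor and ubiquitin ligase, had a log2 fold change of 0.23 (SE 0.25).

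ISG15 is a ubiquitin-like protein that UBA7 activates, HERC5 attaches to newly made proteins in human cells and USP18 removes. ISG15 itself stood at 12.5, 15.5 and 15.5 CPM in wildtype and at 15.6, 20.0 and 24.3 CPM in deletion libraries. Deletion replicate 1 exceeded the wildtype range by a margin too small to see on the plot of levels (log2 fold change 0.46, SE 0.18, unadjusted p = 0.0322). UBA7 stood at 3.62, 2.34 and 1.81 CPM in wildtype and at 3.33, 4.22 and 4.92 CPM in deletion libraries (log2 fold change 0.67, SE 0.30). HERC5 had a log2 fold change of 0.37 (SE 0.29). USP18, which also damps signalling at the type I receptor, stood at 2.99, 3.10 and 3.51 CPM in wildtype and at 1.95, 2.80 and 3.42 CPM in deletion libraries. The log2 fold change of USP18 was -0.24 (SE 0.26), the lowest of the 36, and its ranges overlapped.

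PARP9 and DTX3L act as a pair in ubiquitination and are neighbours in the gene order. Both had higher means in deletion cortex, with log2 fold changes of 0.44 (SE 0.30) and 0.35 (SE 0.31), as did the related ADP-ribosyltransferases PARP12 (0.25, SE 0.24) and PARP14 (0.70, SE 0.36). PARP14 stood at 4.64, 1.58 and 2.66 CPM in wildtype and at 4.25, 5.05 and 5.06 CPM in deletion libraries, so wildtype replicate 1 lay among the deletion libraries. The rest of the set were IFI35 (log2 fold change 0.48, SE 0.34) and NMI (0.18, SE 0.30), which are binding partners, the nuclear body protein SP110 (0.13, SE 0.24), and TAP1 (0.08, SE 0.21), which carries peptides to MHC class I. None of these 8 had an unadjusted p under 0.05.

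**Figure D2:**
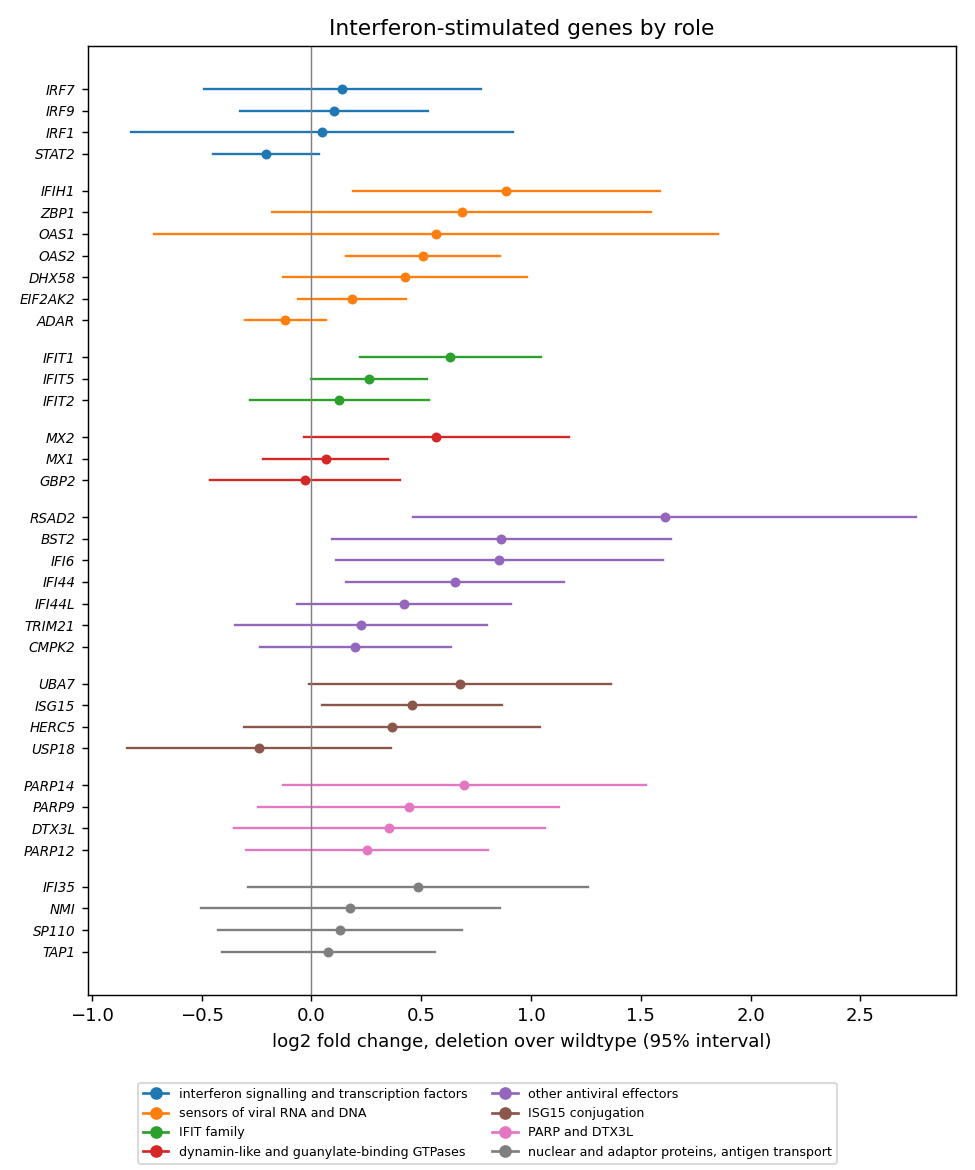
Log2 fold change of deletion over wildtype with its 95% interval for the 36 tested interferon-stimulated genes, coloured by role and ordered by size within each role. The intervals of 8 genes lie above 0, 0 lie below 0, and 28 include 0.

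Higher deletion means were the more frequent at low and at high level. Of the 22 genes with a mean under 10 CPM, 21 had a positive log2 fold change (median 0.44), where 54.1% of all tested genes at that level did. Of the 14 with a mean of 10 CPM or more, 11 did (median 0.14), where 48.5% of all tested genes at that level did. At an unadjusted p under 0.05 each class held 4 genes, all with higher deletion means, against 2.73% and 3.67% of the tested genes of those levels in that direction. The difference between the classes was not tested. By length-scaled level the most abundant after MX1 were ISG15 (68.5 TPM), IFI6 (65.2 TPM), ADAR (35.1 TPM) and STAT2 (30.6 TPM), and the least abundant tested gene was IFIH1 (0.696 TPM). Precision was lower than for most genes, with a median SE of 0.25 against 0.15 over all tested genes and a median level of 5.37 against 19.3 CPM.

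The higher levels were carried mainly by deletion replicates 2 and 3. Each of these was the highest of the 6 libraries in 15 of the 36 genes, whereas deletion replicate 1 was highest in 1, wildtype replicate 1 in 4, wildtype replicate 3 in 1 and wildtype replicate 2 in 0. On the scale of log2(CPM + 0.5) relative to each gene's mean over the 6 libraries, the median over the genes was -0.02, -0.24 and -0.10 in wildtype replicates 1 to 3 and -0.03, 0.24 and 0.23 in deletion replicates 1 to 3. Deletion replicate 1 thus lay between wildtype replicates 1 and 3 by this median. It stood above the wildtype range in 12 genes and inside it in 19, whereas replicates 2 and 3 stood above it in 27 and 25. Over all tested genes the same medians lay between -0.0026 and 0.010.

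Single libraries stood apart from the rest of their group in some genes. IRF1, OAS1, BST2, UBA7 and PARP14 were at least 1.5-fold higher in wildtype replicate 1 than in both other wildtype libraries. Wildtype replicates 2 and 3 had 0 such genes. OAS1, RSAD2, PARP14 and IFI35 were at least 1.5-fold lower in wildtype replicate 2 than in both others, and ZBP1 in wildtype replicate 3. IRF1 and IFI44L were at least 1.5-fold lower in deletion replicate 1 than in both other deletion libraries. In deletion replicate 3, IFIH1, OAS1 and RSAD2 were at least 1.5-fold above both other deletion libraries, while IFI6 and NMI were at least 1.5-fold below. The gene name table pairs GBP1 with a row that carries no symbol. GBP1 was far higher in wildtype replicate 1, at 54.3 CPM against 10.7 and 14.2 CPM in the other wildtype libraries. The deletion libraries held 17.97, 24.5 and 21.9 CPM.

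**Figure D3:**
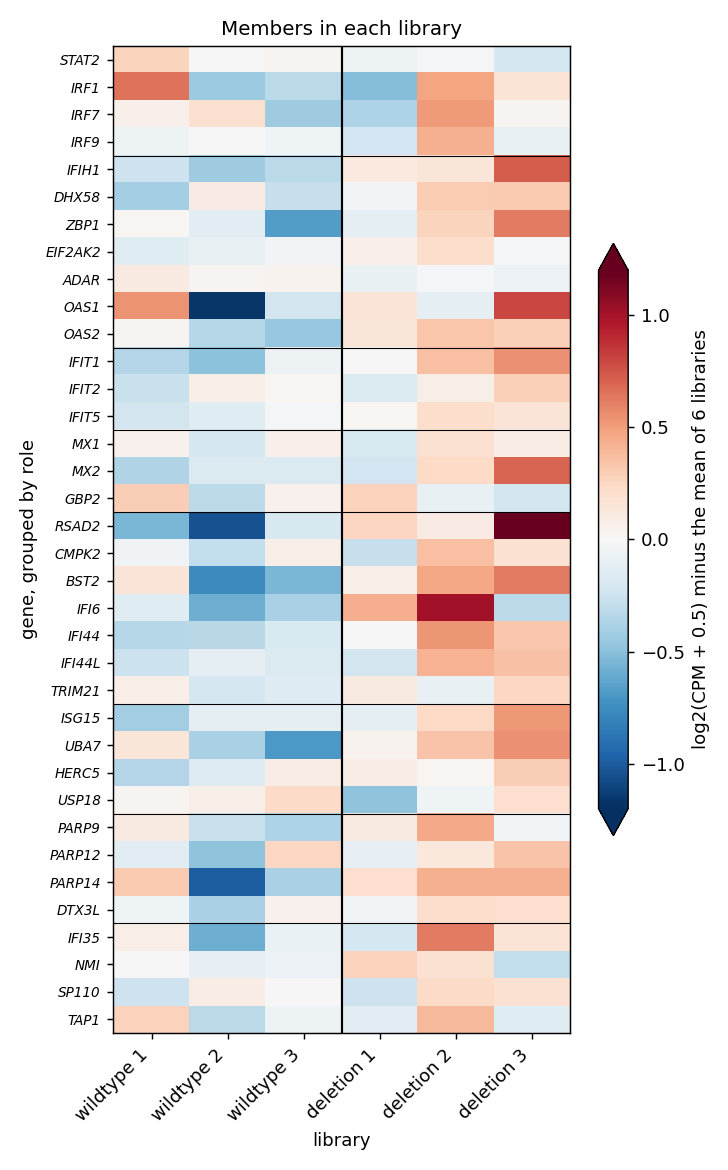
Log2(CPM + 0.5) minus the gene's mean over 6 libraries for the 36 tested interferon-stimulated genes (rows, grouped by role) in each library (columns); the vertical line divides wildtype from deletion and the colour scale ends at 1.2 either way. Red is most frequent in deletion replicates 2 and 3 (medians 0.24 and 0.23), blue in wildtype replicate 2 (-0.24).

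Wildtype replicate 1 and deletion replicate 1 were also the only libraries whose animal number begins with 14, the other 4 beginning with 15. What this prefix stands for was not given in the sources used, and its part in the levels was not tested beyond its use as a covariate. By the medians above, the pair of prefix 14 stood at -0.02 in wildtype and -0.03 in deletion, and the animals of prefix 15 at -0.24 and -0.10 in wildtype and 0.24 and 0.23 in deletion. With the prefix as a covariate, 10 genes had an unadjusted p under 0.05, all with higher deletion means, where 3.48% of all tested genes were called in that direction. IFIT5 and MX2 joined the 8 there, with unadjusted edgeR p-values of 0.0440 and 0.0460.

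The counts depended on single libraries. Leaving out deletion replicate 1 raised the genes at an unadjusted p under 0.05 from 8 to 13, where 5.42% of all genes tested were called higher. Leaving out deletion replicate 2 lowered them to 4 (2.11%), and leaving out deletion replicate 3 to 5 (1.58%). On the TPM scale all tested genes had a median log2 ratio of -0.13, and relative to that median 32 of the 36 interferon-stimulated genes were higher. IRF1, IRF7, IRF9, IFIT2, MX1, SP110 and TAP1 changed sign with this scale.

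In the authors' deposited table, 0 of the 38 genes with a row had an adjusted p under 0.05, where 0.159% of its genes with an adjusted p did. Its lowest adjusted p among these genes was 0.139, for RSAD2 (fold change 3.05 in the authors' deposited table). IFI6 and IFIT1 followed in the authors' deposited table, with fold changes of 1.81 and 1.56 and adjusted p-values of 0.156 and 0.343.

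Of 8 interferon ligand genes looked up, 5 had a row and none of these was detected, while IFNW1, IFNL1 and IFNL3 had no row under those symbols. IFNA1, IFNB1, IFNE, IFNK and IFNG each had 0 reads in all 6 libraries, which allows up to 0.107 to 0.152 CPM per library (3 reads, counting error only). The receptor and proximal signalling genes had 0 of 10 tested members at an unadjusted p under 0.05 and a median log2 fold change of -0.04. TYK2, a receptor-bound kinase, measured 20.1 ± 1.504 against 17.9 ± 0.25 CPM, and IL10RB, a subunit of the receptor for type III interferons, 2.58 ± 0.20 against 3.17 ± 0.69 CPM.

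Among adaptors and kinases of nucleic acid sensing, 1 of 16 had an unadjusted p under 0.05 (median log2 fold change 0.07). This was RNF135, a ubiquitin ligase that activates RIG-I, at 1.73, 1.41 and 1.36 CPM in wildtype and at 2.16, 2.20 and 2.39 CPM in deletion libraries (log2 fold change 0.58, SE 0.25, edgeR adjusted p = 0.683). Negative regulators had 0 of 13 and a median of -0.07, with the feedback inhibitor SOCS3 at 3.61 ± 0.72 against 2.57 ± 0.33 CPM and the STAT phosphatase PTPN2 at 7.33 ± 0.96 against 8.83 ± 0.49 CPM. Of 21 genes of MHC class I and the immunoproteasome looked up, 14 were tested. TAPBP and the pig MHC class I genes SLA-1, SLA-2, SLA-3, SLA-6, SLA-7 and SLA-8 had no row under those symbols. The tested genes had 0 of 14 at an unadjusted p under 0.05. On the TMM scale 13 of the 14 had positive log2 fold changes (median 0.15), where 50.5% of all tested genes did. B2M, the light chain of MHC class I, stood at 236, 151 and 201 CPM in wildtype and at 186, 363 and 245 CPM in deletion libraries, with deletion replicate 2 highest. PSMB8, an immunoproteasome subunit, measured 4.60 ± 1.39 against 7.18 ± 2.73 CPM.

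Of 58 other interferon-induced genes looked up outside the set, 34 had a row and 28 were tested. Those without a row under their symbols included IFITM1, IFI16, IFI27, OAS3 and RTP4. The 28 tested genes did not lean as a list: 14 had a positive log2 fold change (median 0.02), where 50.5% of all tested genes did. At an unadjusted p under 0.05 there were 3, all with higher deletion means. TRIM22, a ubiquitin ligase with antiviral activity, stood at 4.42, 3.27 and 5.12 CPM in wildtype and at 7.36, 7.16 and 7.12 CPM in deletion libraries, with all deletion replicates alike (log2 fold change 0.76, SE 0.20). DDX60, a helicase linked to RIG-I signalling, measured 0.502 ± 0.31 against 1.26 ± 0.40 CPM, and HERC6, a HECT ligase related to HERC5, 11.9 ± 1.76 against 15.4 ± 0.74 CPM. All 3 had an edgeR adjusted p of 0.683. Over the 5 pathway lists with tested genes, 4 of 81 genes had an unadjusted p under 0.05, all with higher deletion means, beside 3.33% of all tested genes in that direction.

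**Figure D4:**
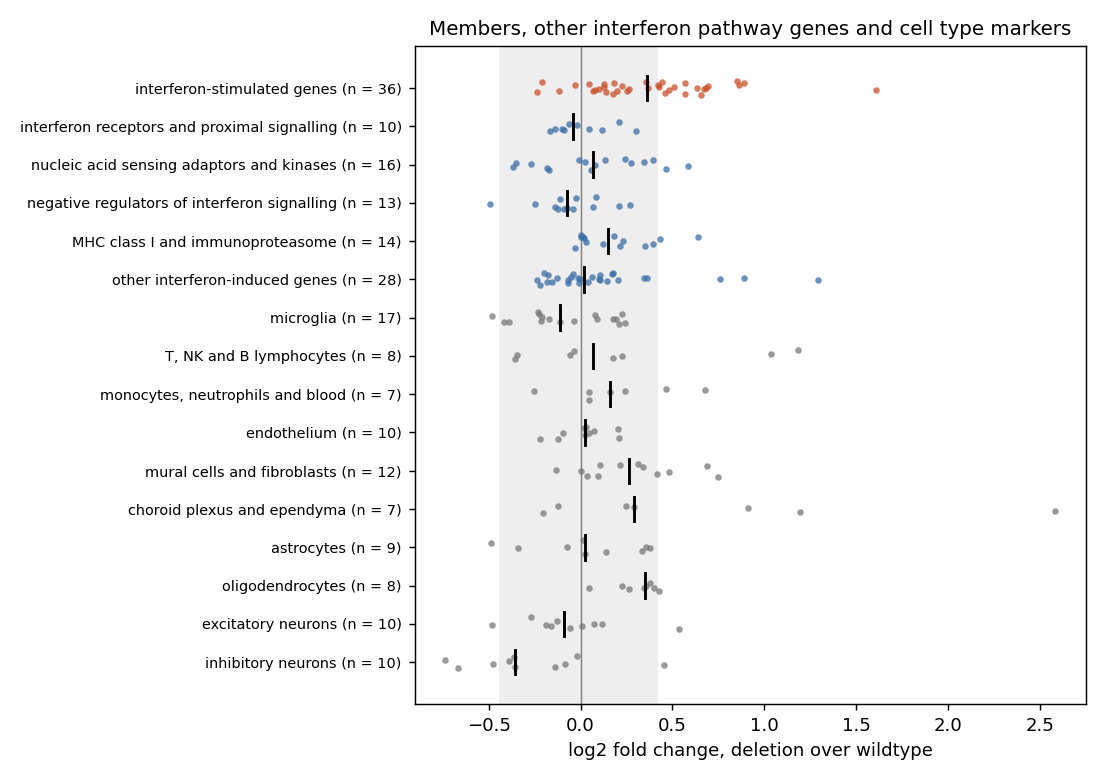
Log2 fold change of deletion over wildtype for each tested gene of the interferon-stimulated set (top), of 5 further interferon pathway lists and of 10 cell type marker lists; black bars are medians, and the grey band spans the 5th to 95th percentile of all tested genes (-0.44 to 0.42). The interferon-stimulated genes have a median of 0.36, and the 5 pathway lists have medians from -0.07 to 0.15. The 10 marker lists have medians from -0.36 (inhibitory neurons) to 0.35 (oligodendrocytes).

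Markers of cell types that can carry interferon responses varied between animals. At an unadjusted edgeR p under 0.05, 3.33% of all tested genes were higher and 3.89% lower in deletion, the background for the counts below. Microglial markers had 0 of 17 tested genes at an unadjusted p under 0.05, none at 0 reads, and summed to 240 to 389 CPM in wildtype and to 190 to 373 CPM in deletion libraries. Their sum was highest in wildtype replicate 2 and lowest in deletion replicate 1. Weighting each marker alike, the mean deviation on the log2(CPM + 0.5) scale was highest in deletion replicate 2 (0.49), followed by wildtype replicate 2 (0.435), and lowest in deletion replicate 1 (-0.57). On that scale the median of the interferon-stimulated genes was -0.02, -0.24 and -0.10 in wildtype and -0.03, 0.24 and 0.23 in deletion replicates 1 to 3. The relation of the microglial markers to these levels was not tested. Lymphocyte markers summed to 47.7 to 56.8 CPM in wildtype and to 50.8 to 52.6 CPM in deletion libraries, with CD3G at 0 reads in every library and most of the sum from the B cell gene CD79A (43.5 CPM over the 6 libraries). Of the 8 tested lymphocyte markers 4 had higher and 4 lower deletion means. CD8A, a T cell coreceptor, stood at 0.674, 0.413 and 0.502 CPM in wildtype and at 1.38, 1.24 and 0.984 CPM in deletion libraries with separate groups, and was the only one of the list at an unadjusted p under 0.05. The T cell markers CD4 and CD3D had log2 fold changes of -0.36 (SE 0.39) and -0.35 (SE 0.43). Monocyte, neutrophil and blood markers (0 of 7) summed to 60.3 to 95.5 against 64.9 to 110.6 CPM, and endothelial markers (0 of 10) to 238 to 301 against 269 to 281 CPM. On the log2 scale the mean deviations of the former were 0.35, -0.49 and -0.09 in wildtype and -0.02, 0.54 and -0.29 in deletion replicates 1 to 3. Those of the endothelial markers were 0.11, -0.19 and 0.05 in wildtype and 0.09, -0.00041 and -0.06 in deletion replicates 1 to 3.

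Markers of mural cells and fibroblasts (0 of 12) summed to 278 to 558 CPM in wildtype and to 332 to 693 CPM in deletion libraries. Deletion replicate 2 was highest and wildtype replicate 2 lowest. Their mean deviations on the log2 scale were 0.32, -0.62 and 0.01 in wildtype and 0.03, 0.70 and -0.44 in deletion replicates 1 to 3. Of these 12 markers, 11 had a positive log2 fold change (median 0.26), where 50.5% of all tested genes did. Astrocyte markers had 2 of 9 at an unadjusted p under 0.05, where 3.33% of all tested genes were called higher. Both had higher deletion means: the filament protein GFAP, from 2177 ± 272 to 2790 ± 326 CPM, and the transcription factor SOX9, from 44.7 ± 4.24 to 58.1 ± 1.80 CPM. The list as a whole had a median log2 fold change of 0.03, with the glutamate transporters SLC1A2 (-0.49, SE 0.61) and SLC1A3 (-0.07, SE 0.16) and the enzyme ALDH1L1 (-0.34, SE 0.27) below 0. Its sums, to which GFAP gave the most, were 5002 to 5709 against 5705 to 6626 CPM, and its mean deviations on the log2 scale overlapped, at 0.07, 0.06 and -0.15 in wildtype and 0.17, 0.0043 and -0.15 in deletion replicates 1 to 3. Choroid plexus and ependymal markers had 2 of 7, KCNJ13 and TTR (the latter through deletion replicate 1, at 17.2 CPM), and summed to 31.1 to 41.3 against 42.5 to 59.9 CPM. Both genes had higher deletion means. The mean deviations of this list were 0.06, -0.63 and 0.01 in wildtype and 0.75, -0.27 and 0.07 in deletion replicates 1 to 3. Inhibitory neuron markers had 4 of 10, all with lower deletion means, where 3.89% of all tested genes were called in that direction. They summed to 710 to 948 against 584 to 753 CPM. Excitatory neuron markers had 1 of 10 (NRGN, higher) and oligodendrocyte markers 0 of 8. All 8 oligodendrocyte markers had a positive log2 fold change (median 0.35, median SE 0.38), where 50.5% of all tested genes did. Their libraries did not follow those of the interferon-stimulated genes. The mean deviations of the oligodendrocyte markers on the log2 scale were -0.44, 0.49 and -0.48 in wildtype and 0.70, -0.56 and 0.29 in deletion replicates 1 to 3. The part of these cell types in the levels of the interferon-stimulated genes was not tested.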

How the data were processed

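Cortex RNA of integrity number above 6.1 was made into stranded polyadenylated libraries and sequenced as pairs of 150 bases, per the labels' protocols. Aligner, counting tool, genome build, strand use and the handling of reads that fit several genes were not given in the sources used, so paralogs (IFIT, MX, OAS, GBP, IFI44) and neighbouring genes may share reads. The authors deposited exon read counts per gene and library, which entered every test as deposited (blank read as 0). The authors' TPM values served to compare levels between genes. The authors deposited RPKM values and a score labelled CPM (summing to 970329 to 1022538), neither used. The authors' deposited table gives a signed fold-change score with a p-value and adjusted p-value, by a test not stated. Its group minimum, mean and maximum columns were not used.

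Genes were filtered with filterByExpr, scaled with TMM and compared, deletion against wildtype without covariates, by edgeR 4.0.16 (quasi-likelihood F test, robust, Benjamini-Hochberg adjustment over all tested genes) in R 4.3.3. Standard errors were derived from each gene's log2 fold change and its F statistic. The fit was tested on simulated data. Symbols came from the files for 16246 genes and from the gene name table for 777 more. Adjacency of genes is that of RefSeq assembly Sscrofa11.1.

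The genes, lists and tests were chosen with earlier results of these data known. All genes of the set are named. Values per library are given for those with an unadjusted p under 0.05, separate groups, the highest mean levels or the lowest fold changes, with some others chosen after their values were seen. From each pathway list up to 4 genes of lowest p under 0.05, otherwise the 2 of lowest p, are named. Alternatives were DESeq2 1.42.0 (size factors, and the Wald test), limma-voom 3.58.1 with sample weights, no filter, CPM of at least 1 in 3 libraries, the leading part of the animal number (14 or 15) as covariate, each library left out and, added after the data were seen, TPM. Uniquely assigned reads were planned as an alternative and not analysed here. Replicate numbers follow accession order and pair no animals.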

Additional observations from a re-analysis of the deposited data

How the results depend on the processing

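Over the 12 alternatives on read counts, 26 of the 36 genes kept a log2 fold change above 0 in all of them and 3 (STAT2, ADAR and USP18) one below 0. With TPM as well these numbered 24 and 3, IFIT2 and SP110 falling below 0 there. Over the 12, 0 genes of the set passed an adjusted p of 0.05 in any. The count of genes called over all genes moved from 1 to 10 with the DESeq2 Wald test and 2 with no filter, and was 1 to 2 without single libraries. Genes of the set at an unadjusted p under 0.05 moved from 8 to 14 with limma-voom (13 higher, where 7.14% of all tested genes were), and from 4 to 13 without single libraries. Pathway genes at that threshold, in either direction, numbered 9 with limma-voom against 4, and 1 to 11 without single libraries. The share of all tested genes called higher moved too, to 7.14% with limma-voom against 3.33%, and to 1.58% to 5.42% without single libraries. Positive values numbered 28 to 33 and the median ranged from 0.26 to 0.43 without single libraries, while with the authors' TPM the median was 0.20. Genes with separate groups numbered 11 to 23 without single libraries: 18 without wildtype replicate 1 (16 higher, where 9.59% of all tested genes were) and 23 without deletion replicate 1 (21 higher, 16.9%). They numbered 10 with DESeq2 size factors (8 higher) and 8 with TPM (6 higher), and were not counted for the other alternatives. With limma-voom NMI (-0.032) and TAP1 (-0.0093) reversed. Without single libraries the log2 fold changes ranged from -0.20 to 0.50 for IRF1, -0.14 to 0.35 for IRF7, -0.13 to 0.24 for IRF9, -0.019 to 0.17 for MX1, -0.19 to 0.12 for GBP2 and -0.13 to 0.26 for TAP1. No cause was tested for these moves. No paired analysis was possible because the labels give no replicate numbers shared between groups. The animal-number prefix as a covariate gave 0 genes of the set at an adjusted p of 0.05 and moved those at an unadjusted p under 0.05 from 8 to 10. With 3 animals per group and few reads for many genes of the set, depth and number limit what can be detected.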
